A study of Mus musculus with 9 samples.

Results

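The genes described here encode the machinery that takes a cell from G1 into S phase and copies its DNA. The list holds 39 genes, and 38 of them had a probe set assigned to that gene alone, out of 18193 genes with such a probe set on the array. For each gene the brightest such probe set, by its mean over the 9 arrays, was taken, and all 38 passed the filter on low values, as did 15235 genes in all. Chaf1a was not analysed here. The arrays came from the mouse pancreatic cancer cell line 170#3, of mixed C57BL6 x FVB x 129Sv background, grown as a monolayer in DMEM with 10% FBS. A total of 3 stable transfections were compared, with 3 arrays each. Beta-catenin cells received beta-catenin, the co-activator of the Wnt pathway. ICAT cells received ICAT, a small beta-catenin-binding inhibitor that keeps beta-catenin from TCF factors. Control cells carry the label "control", which does not say whether they hold an empty vector. The labels give neither the promoter of the transgenes nor whether a line is 1 clone or a pool, and they do not say that the replicates came from separate transfections, so p-values reflect no more than the spread among these arrays.

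Before a cell can copy its DNA, origins must be licensed in G1. The origin recognition complex, Cdc6 and Cdt1 load the ring of MCM proteins onto DNA. Cyclin E with its kinase and the E2F factors then start S phase, Cdc45, GINS and Mcm10 help to turn the loaded ring into an active helicase, and primase, the replicative polymerases, the sliding clamp and its loader build the new strands. Many of these genes are transcribed from E2F-bound promoters that are repressed in quiescent cells, so their transcripts are widely used as a readout of the fraction of cells that is cycling. In RNA from bulk cultures, fewer cells in S phase and less of a transcript per cell cannot be told apart.

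Values are RMA log2 expression, in which a difference of 1 is a 2-fold change. Array medians lay between 6.21 and 6.29. ICAT arrays spread most, with a median SD of 0.163 over the 38 genes, against 0.0724 in beta-catenin cells and 0.0364 in control cells (n = 3 each). The transfected genes were little changed by their own probe sets. Ctnnb1, which encodes beta-catenin, averaged 12.88 in beta-catenin cells, 12.88 in ICAT cells and 12.68 in control cells. Its calls against control (adjusted p = 0.0353 in beta-catenin cells and 0.0364 in ICAT cells) were lost without any 1 of the 3 beta-catenin or 3 control arrays in the first comparison (adjusted p between 0.0662 and 0.104), and in the second without ICAT replicate 1 or 2, beta-catenin replicate 2 or 3 or any 1 control array (between 0.0519 and 0.110). Ctnnbip1, which encodes ICAT, passed in neither comparison (adjusted p = 0.208 and 0.189). A 3′ probe set need not detect a transgene, so neither the transgenes nor the labels are checked by these values. Of 9 epithelial markers on the array, Sox9 (8.94 to 9.62), Krt18 (6.57 to 8.92), Epcam (7.34 to 7.65), Krt8 (6.33 to 7.60), Muc1 (6.48 to 7.02), Cldn4 (5.38 to 5.67) and Krt19 (5.10 to 5.66) were above 5 on every array. Krt7 lay between 4.84 and 5.15, and Cdh1 did not exceed 3.56. Of 9 immune and endothelial markers, Ptprc, Itgam and Cdh5 were under 5 on every array, while Cd14 (7.66 to 8.40), Kdr (7.34 to 7.67), Cd3e (6.91 to 7.20), Cd68 (5.35 to 6.31), Adgre1 (5.46 to 5.97) and Pecam1 (5.04 to 5.36) were above it.

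The replication genes were lower in ICAT cells almost as a block. Of 38 genes, 32 fell and 0 rose in ICAT cells against control, where 37.2 percent of all genes tested were called, 18.5 percent lower and 18.7 percent higher (limma, adjusted p under 0.05). By an unadjusted p under 0.05, 0 genes were higher there as well. The median log2 difference of the 38 genes was -0.44, against -0.01 over all genes tested. The falls were moderate, from 1.18-fold to 2.02-fold with a median of 1.40-fold, and 5 of them were 1.5-fold or more. All 3 ICAT arrays lay below all 3 control arrays for 33 of 38 genes, and for 0 above, where 23.3 percent of all genes tested lay below and 22.9 percent above. Bright genes as a class were more often lower in ICAT cells. Among the 4499 genes whose mean lay between 9 and 13, a range that holds 31 of the 38, 35.9 percent fell and the median difference was -0.07.

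In beta-catenin cells genes of the list went both ways. There 12 genes rose (31.6 percent), 6 fell (15.8 percent) and 20 were not called. Of all genes tested, 34.9 percent were called, 19.6 percent higher and 15.4 percent lower. The share of the list that fell was thus near that of all genes. The median log2 difference was 0.05, against -0.03 over all genes tested. The genes that rose were Mcm2, Mcm3, Mcm6, Mcm7, Gins1, Gins2, Pold1, Prim1, Prim2, Rfc3, Rfc4 and Lig1. Those that fell were Mcm4, Cdc45, Rrm2, Uhrf1, Ccne1 and Msh6. Changes were small, between 1.16-fold and 1.60-fold. For 17 genes all beta-catenin arrays lay above the control arrays and for 14 all lay below, where 27.8 and 26.3 percent of all genes tested did so. Without ICAT replicate 3, which enters this comparison through the shared estimate of spread and the filter on low values, 11 genes fell in beta-catenin cells. Cdc6, Mcm5 and Mcm10 were then called higher as well. Over all genes tested, rises went from 2981 to 3346 and falls from 2340 to 2876 without that array. Among the 4499 genes with a mean between 9 and 13, 26.6 percent rose and 24.5 percent fell in beta-catenin cells. Both comparisons use the same 3 control arrays, so they are not independent of each other, and the values of both are given gene by gene. For genes of the list, calls gained or lost are named there for left-out arrays only. Genes not called in beta-catenin cells could still be called under other settings, whose counts are given at the end.

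**Figure D1:**
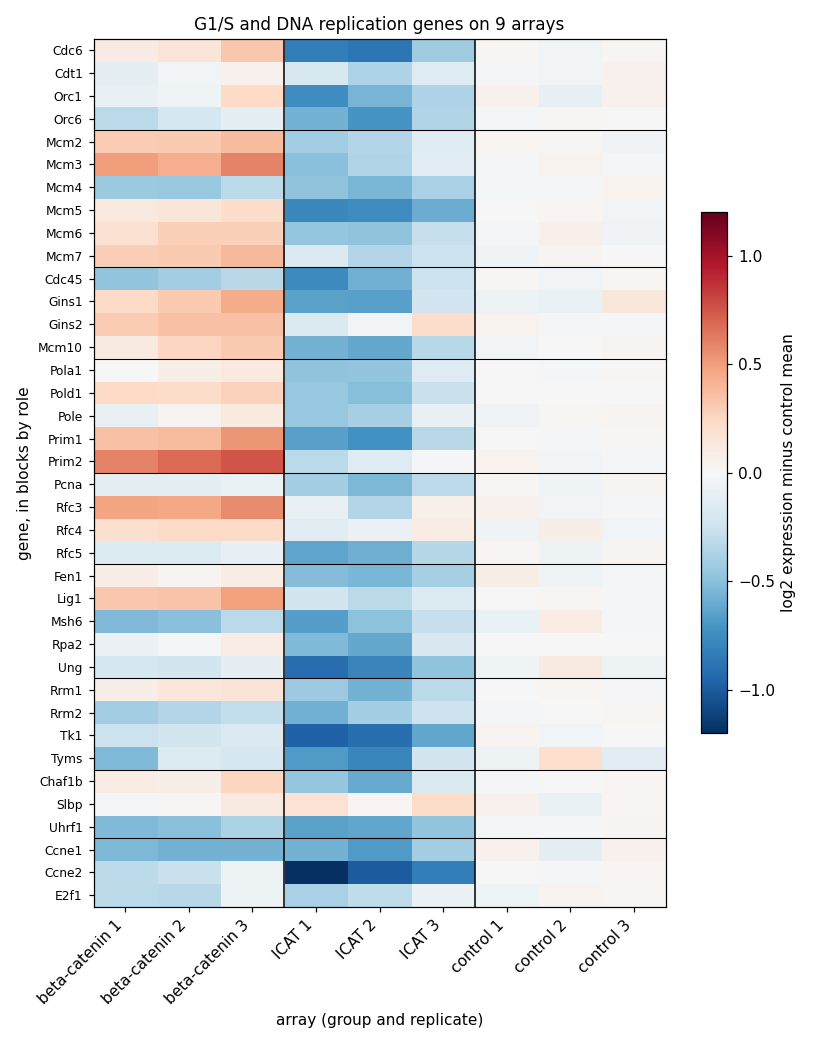
Log2 expression minus the control mean for 38 genes (rows, in blocks by role) on 9 arrays (columns: 3 beta-catenin, 3 ICAT and 3 control arrays, by replicate). Blue marks values below and red values above the control mean. ICAT columns 1 and 2 are blue for 37 of 38 genes each and column 3 for 34, and the beta-catenin columns hold both colours.

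Origin licensing opens the sequence, and its 4 measured genes all fell in ICAT cells while none was called in beta-catenin cells. Cdc6, the ATPase that brings Cdt1 and the MCM ring to the origin, read 9.14, 9.19 and 9.36 on the beta-catenin arrays, 8.21, 8.18 and 8.62 on the ICAT arrays and 9.06, 9.01 and 9.06 on the control arrays. Every ICAT array was below every other array, and Cdc6 fell 1.64-fold in ICAT cells (log2 difference -0.71 ± 0.109 SE, adjusted p = 0.000388). The beta-catenin arrays were all above the control arrays, by a mean of 0.19, which did not pass the test (adjusted p = 0.224) but did without ICAT replicate 3 (adjusted p = 0.0429). Orc1, the large subunit of the origin recognition complex, had 7.84, 7.88 and 8.17 in beta-catenin cells, 7.19, 7.38 and 7.56 in ICAT cells and 7.98, 7.83 and 7.99 in control cells. It fell 1.47-fold in ICAT cells (adjusted p = 0.00189), with no overlap, while beta-catenin and control arrays overlapped (log2 difference 0.03, adjusted p = 0.858). Another probe set of Orc1, with a mean of 7.54 against 7.76 for the chosen one, did not show the ICAT fall. Its log2 difference there was -0.14 (adjusted p = 0.280 over all probe sets). This probe set was lower in beta-catenin cells than in control cells (-0.32, adjusted p = 0.0149). Between beta-catenin and ICAT cells it differed by -0.18 without a call (adjusted p = 0.159). Orc6, a small subunit of the same complex, measured 10.05, 10.16 and 10.25 on beta-catenin arrays, 9.81, 9.67 and 10.01 on ICAT arrays and 10.36, 10.39 and 10.38 on control arrays. Both transfected lines lay wholly below control. Only the ICAT difference passed the test (-0.54, adjusted p = 0.000519, against -0.22 and 0.0781 in beta-catenin cells, where a call was gained without ICAT replicate 2 or 3, with adjusted p between 0.0225 and 0.0450). Cdt1, the loading factor that geminin restrains, changed least, with 11.36, 11.45 and 11.52 in beta-catenin cells, 11.28, 11.11 and 11.32 in ICAT cells and 11.46, 11.44 and 11.52 in control cells. Its beta-catenin arrays overlapped the control arrays (log2 difference -0.03, adjusted p = 0.795). The 1.18-fold fall in ICAT cells (adjusted p = 0.0241) was lost without ICAT replicate 2 or without any 1 of the 3 control arrays (adjusted p between 0.0515 and 0.0941).

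The MCM ring is the motor of the replicative helicase, made of 1 copy each of Mcm2 to Mcm7. All 6 genes fell in ICAT cells, while in beta-catenin cells 4 rose, 1 fell and 1 was not called. Mcm2 read 11.10, 11.11 and 11.17 on the beta-catenin arrays, 10.38, 10.45 and 10.65 on the ICAT arrays and 10.82, 10.81 and 10.75 on the control arrays. No array of one group overlapped another: beta-catenin was highest and ICAT lowest. Mcm2 rose 1.26-fold in beta-catenin cells (log2 difference 0.33 ± 0.0746 SE, adjusted p = 0.00455) and fell 1.24-fold in ICAT cells (-0.31, adjusted p = 0.00705). Another probe set of Mcm2 rose as well, but its ICAT difference was not called (-0.23, adjusted p = 0.113 over all probe sets). Mcm3, a neighbour of Mcm5 in the ring, gave 11.37, 11.31 and 11.47 in beta-catenin cells, 10.37, 10.51 and 10.74 in ICAT cells and 10.85, 10.91 and 10.85 in control cells. Its groups were separate in the same order, with a 1.43-fold rise in beta-catenin cells (adjusted p = 0.000842) and a 1.26-fold fall in ICAT cells (adjusted p = 0.0131). Mcm5, which forms the ring's DNA entry gate with Mcm2, had 11.89, 11.91 and 11.97 in beta-catenin cells, 10.995, 11.01 and 11.17 in ICAT cells and 11.77, 11.79 and 11.74 in control cells. ICAT arrays stood far below the rest, and Mcm5 fell 1.63-fold (-0.71 ± 0.0651 SE, adjusted p = 1.21e-05). Its beta-catenin arrays were above the control arrays by 0.16, which did not pass (adjusted p = 0.0832) but did without ICAT replicate 3 (adjusted p = 0.0257). Mcm6 measured 10.82, 10.93 and 10.92 on beta-catenin arrays, 10.18, 10.16 and 10.36 on ICAT arrays and 10.61, 10.70 and 10.60 on control arrays. The groups did not overlap, and Mcm6 fell 1.32-fold in ICAT cells (adjusted p = 0.00108). Its 1.19-fold rise in beta-catenin cells (adjusted p = 0.0186) was lost without beta-catenin replicate 2 or 3 or control replicate 1 or 3 (adjusted p between 0.0642 and 0.0744). Mcm7 gave 13.001, 13.02 and 13.10 in beta-catenin cells, 12.54, 12.36 and 12.45 in ICAT cells and 12.67, 12.74 and 12.72 in control cells. It too was separate in all groups, rising 1.26-fold in the beta-catenin line (adjusted p = 0.00202) and falling 1.2-fold in ICAT cells (adjusted p = 0.00873). A further probe set of Mcm7 was not called in ICAT cells (-0.21, adjusted p = 0.0687 over all probe sets), while its others were. Mcm4 stood apart from the other subunits. Its beta-catenin arrays lay between 11.40 and 11.54, its ICAT arrays between 11.31 and 11.46 and its control arrays between 11.83 and 11.90, and it fell in both lines, 1.33-fold in the beta-catenin line (adjusted p = 0.000581) and 1.39-fold in ICAT cells (adjusted p = 0.000212).

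**Figure D2:**
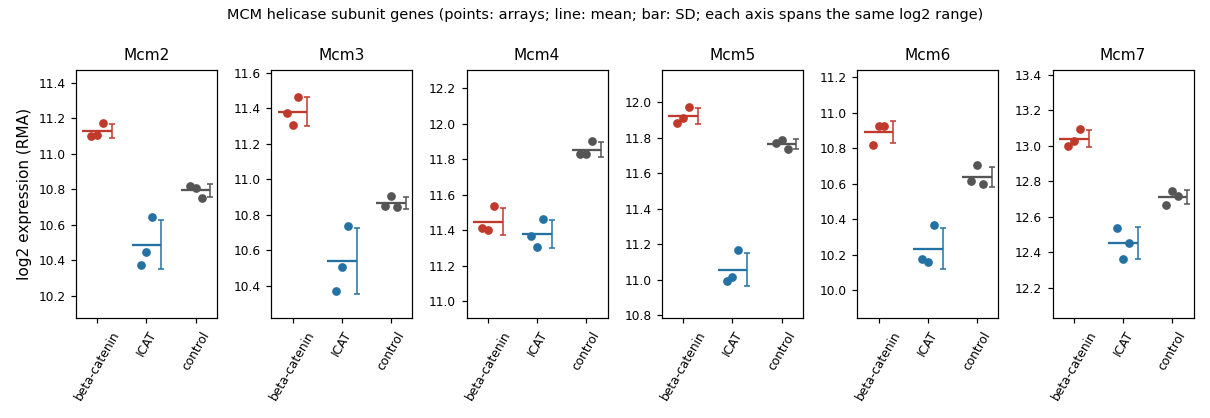
Log2 expression of Mcm2 to Mcm7 on each of the 3 beta-catenin, 3 ICAT and 3 control arrays, with the group mean as a line and the SD as a bar; every panel spans the same log2 range. ICAT points lie below control points in all 6 panels, and beta-catenin points lie above control points in all but Mcm4.

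The start-site windows of 4 MCM genes, of Cdc6 and of Uhrf1 show the E2F-type letters that recur in this list. Mcm3, Mcm5, Mcm6 and Mcm7 are shown as the helicase genes with such letters, Cdc6 as the licensing gene with the largest difference between the lines, and Uhrf1 as a gene that fell in both lines. Each window runs from 250 bases before to 50 bases after a RefSeq start site on GRCm38.p6, 5′ to 3′ on the gene's strand, with the letters in capitals. The windows are Mcm3 at chr1:20820263-20820562 (minus strand), Mcm5 at chr8:75109259-75109558 (plus), Mcm6 at chr1:128359656-128359955 (minus), Mcm7 at chr5:138171834-138172133 (minus), Cdc6 at chr11:98907901-98908200 (plus) and Uhrf1 at chr17:56304063-56304362 (plus).
Mcm3: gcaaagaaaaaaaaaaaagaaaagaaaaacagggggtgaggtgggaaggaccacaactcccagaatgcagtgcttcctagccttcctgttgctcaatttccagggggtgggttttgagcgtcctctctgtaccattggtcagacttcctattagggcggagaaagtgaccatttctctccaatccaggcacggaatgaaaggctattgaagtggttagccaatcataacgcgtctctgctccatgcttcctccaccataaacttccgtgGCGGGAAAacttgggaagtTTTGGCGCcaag
Mcm5: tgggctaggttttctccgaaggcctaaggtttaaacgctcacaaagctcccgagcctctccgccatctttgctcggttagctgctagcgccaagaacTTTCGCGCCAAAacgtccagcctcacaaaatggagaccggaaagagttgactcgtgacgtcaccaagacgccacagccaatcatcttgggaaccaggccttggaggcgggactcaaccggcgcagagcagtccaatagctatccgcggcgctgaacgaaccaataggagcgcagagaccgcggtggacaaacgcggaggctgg
Mcm6: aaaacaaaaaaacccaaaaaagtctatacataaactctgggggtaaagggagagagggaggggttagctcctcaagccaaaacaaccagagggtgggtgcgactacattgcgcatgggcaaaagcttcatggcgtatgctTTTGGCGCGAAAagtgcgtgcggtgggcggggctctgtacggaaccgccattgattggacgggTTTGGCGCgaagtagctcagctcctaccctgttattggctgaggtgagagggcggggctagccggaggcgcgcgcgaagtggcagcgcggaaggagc
Mcm7: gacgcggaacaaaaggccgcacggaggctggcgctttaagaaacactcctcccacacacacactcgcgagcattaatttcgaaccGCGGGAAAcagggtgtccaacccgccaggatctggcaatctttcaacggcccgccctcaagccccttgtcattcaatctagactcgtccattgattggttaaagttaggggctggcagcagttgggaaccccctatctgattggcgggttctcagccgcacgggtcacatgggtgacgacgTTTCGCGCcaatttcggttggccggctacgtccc
Cdc6: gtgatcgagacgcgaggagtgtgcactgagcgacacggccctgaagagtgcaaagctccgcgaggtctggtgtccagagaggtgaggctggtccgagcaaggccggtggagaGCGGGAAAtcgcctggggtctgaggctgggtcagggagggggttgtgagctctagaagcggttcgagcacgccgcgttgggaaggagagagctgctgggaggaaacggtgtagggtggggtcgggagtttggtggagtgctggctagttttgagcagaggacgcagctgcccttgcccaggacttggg
Uhrf1: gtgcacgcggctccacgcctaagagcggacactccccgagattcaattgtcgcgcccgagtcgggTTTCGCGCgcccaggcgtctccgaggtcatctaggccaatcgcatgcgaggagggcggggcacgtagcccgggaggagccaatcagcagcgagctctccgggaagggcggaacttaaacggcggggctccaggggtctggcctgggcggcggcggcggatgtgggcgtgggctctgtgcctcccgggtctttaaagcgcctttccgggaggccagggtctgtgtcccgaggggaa
In Mcm5 the capitals hold 2 overlapping matches, 1 on each strand, starting 153 and 149 bases upstream of the start site, and in Mcm6 an overlapping pair of the same kind starts 110 and 106 bases upstream with a separate match 47 bases upstream. Mcm7 and Uhrf1 each have another RefSeq start site, whose window holds none of the letters.

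The letters searched were TTTGGCGC, TTTCGCGC, TTTCCCGC and TTTGCCGC on both strands. They were found in 13 of 37 windows of 32 genes of the list that had a window (35.1 percent), against 542 of 15443 windows of all genes tested (3.51 percent) and 744 of 32851 windows in the whole table (2.26 percent). The 13 genes were Cdc6, Cdt1, Lig1, Mcm3, Mcm5, Mcm6, Mcm7, Msh6, Orc1, Pola1, Pold1, Rfc3 and Uhrf1. Genes with the letters were found on either side of the calls in beta-catenin cells, with 6 of 9 genes that rose, 2 of 5 that fell and 5 of 18 not called. In ICAT cells 12 of 28 genes that fell had them, and 1 of 4 not called. The CCAAT box, searched as CCAAT on both strands, was in 21 of 37 windows (56.8 percent), against 37.4 percent of windows of all genes tested. A match describes letters only and does not show that a factor binds there.

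Turning the loaded ring into a working helicase takes Cdc45, the GINS complex and Mcm10. Of these 4 genes, 3 fell in ICAT cells, and in beta-catenin cells 2 rose and 1 fell. Gins1, a GINS subunit, had 9.30, 9.37 and 9.505 on beta-catenin arrays, 8.41, 8.41 and 8.83 on ICAT arrays and 8.997, 8.98 and 9.20 on control arrays. Its groups did not overlap, and it fell 1.42-fold in ICAT cells (adjusted p = 0.00447). The 1.26-fold rise in beta-catenin cells (adjusted p = 0.0421) was lost without beta-catenin replicate 2 or 3 or control replicate 1 or 2 (adjusted p between 0.0874 and 0.144). Gins2, another subunit, lay between 9.83 and 9.87 on beta-catenin arrays, 9.34 and 9.73 on ICAT arrays and 9.49 and 9.56 on control arrays. It rose 1.26-fold in the beta-catenin line (adjusted p = 0.0108), while ICAT and control arrays overlapped (adjusted p = 0.997). Mcm10, which helps to activate the helicase and is no part of the ring, read 9.51, 9.65 and 9.71 in beta-catenin cells, 8.83, 8.78 and 9.07 in ICAT cells and 9.37, 9.39 and 9.43 in control cells. It was lowest on the ICAT arrays, 1.42-fold below control (adjusted p = 0.000667). Its beta-catenin arrays lay above control by 0.22 without a call (adjusted p = 0.0591), which was gained without beta-catenin replicate 1 or ICAT replicate 3 (adjusted p between 0.0154 and 0.0362). Cdc45 went the other way in beta-catenin cells, with 8.57, 8.63 and 8.71 there, 8.27, 8.46 and 8.78 in ICAT cells and 9.05, 9.003 and 9.07 in control cells. Both lines lay below control throughout. Cdc45 fell 1.33-fold in the beta-catenin line (adjusted p = 0.0120) and 1.45-fold in ICAT cells (adjusted p = 0.00235). Another probe set of Cdc45, with a mean of 7.33 against 8.73 for the chosen one, was called in neither line. Its log2 differences were -0.07 and -0.10 (adjusted p = 0.629 and 0.497 over all probe sets).

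Of the 5 primase and replicative polymerase genes, 3 rose in beta-catenin cells and 4 fell in ICAT cells. Prim1, the catalytic primase subunit that makes the RNA primers, read 10.68, 10.71 and 10.85 on the beta-catenin arrays, 9.67, 9.60 and 9.99 on the ICAT arrays and 10.32, 10.32 and 10.34 on the control arrays. All 3 groups were separate. Prim1 rose 1.34-fold in the beta-catenin line (adjusted p = 0.00511) and fell 1.49-fold in ICAT cells (adjusted p = 0.000693). Prim2, the regulatory primase subunit, measured 9.91, 9.99 and 10.07 in beta-catenin cells, 8.996, 9.16 and 9.30 in ICAT cells and 9.36, 9.28 and 9.30 in control cells. Its 1.60-fold rise in beta-catenin cells (0.68 ± 0.0811 SE, adjusted p = 5.28e-05) was the largest of the 12 in that comparison. ICAT arrays overlapped the control arrays (log2 difference -0.16, adjusted p = 0.147). With 1 array left out, a call was gained only without ICAT replicate 3 (adjusted p = 0.0223). Pold1, the catalytic subunit of polymerase delta, gave 9.55, 9.54 and 9.59 in beta-catenin cells, 8.86, 8.80 and 9.05 in ICAT cells and 9.32, 9.31 and 9.31 in control cells. Again no groups overlapped, and Pold1 fell 1.33-fold in ICAT cells (adjusted p = 0.000844). The 1.18-fold rise in beta-catenin cells (adjusted p = 0.0188) was lost without beta-catenin replicate 3 or any 1 of the 3 control arrays (adjusted p between 0.0539 and 0.0634). Another probe set of Pold1 was not called there (0.15, adjusted p = 0.270 over all probe sets). The catalytic subunits of polymerase alpha (Pola1) and polymerase epsilon (Pole) were not called in beta-catenin cells (adjusted p = 0.610 and 0.884). In ICAT cells Pola1 fell 1.29-fold (adjusted p = 0.00532). Pole fell 1.25-fold (adjusted p = 0.0210), a call lost without ICAT replicate 1 or 2 or control replicate 2 or 3 (adjusted p between 0.0612 and 0.0772).

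The sliding clamp and its loader were split within the complex. Pcna, the clamp that holds polymerases on DNA, had 12.93, 12.95 and 12.97 on beta-catenin arrays, 12.65, 12.52 and 12.74 on ICAT arrays and 13.07, 13.003 and 13.09 on control arrays. Pcna was lowest on the 3 ICAT arrays and fell 1.33-fold there (adjusted p = 0.000593). Beta-catenin arrays were just below the control arrays (log2 difference -0.10, adjusted p = 0.283). Rfc3, a small subunit of the loader, read 9.73, 9.72 and 9.82 in beta-catenin cells, 9.17, 8.91 and 9.32 in ICAT cells and 9.31, 9.22 and 9.24 in control cells. It rose 1.41-fold in the beta-catenin line (adjusted p = 0.00134), and its ICAT arrays lay on both sides of the control arrays (adjusted p = 0.349). Rfc5, another small subunit, had 10.59, 10.59 and 10.66 in beta-catenin cells, 10.12, 10.17 and 10.41 in ICAT cells and 10.79, 10.70 and 10.79 in control cells. Rfc5 fell 1.44-fold in ICAT cells (adjusted p = 0.000338) and lay -0.14 from control in beta-catenin cells without a call (adjusted p = 0.190). A call was gained there without ICAT replicate 3 (adjusted p = 0.0462). Rfc4 lay between 10.02 and 10.07 on beta-catenin arrays, 9.71 and 9.92 on ICAT arrays and 9.79 and 9.91 on control arrays. Its 1.16-fold rise in beta-catenin cells (adjusted p = 0.0307) was lost without any 1 beta-catenin array or without control replicate 1 or 3 (adjusted p between 0.0530 and 0.112), and ICAT cells were not called (adjusted p = 0.760). Another probe set of Rfc4 was not called in beta-catenin cells (0.11, adjusted p = 0.547 over all probe sets).

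Behind the fork, all 5 genes for single-strand binding, Okazaki fragment processing and repair fell in ICAT cells. Lig1, the ligase that seals Okazaki fragments, had 10.65, 10.68 and 10.83 on beta-catenin arrays, 10.11, 10.01 and 10.17 on ICAT arrays and 10.33, 10.35 and 10.31 on control arrays. Its groups were separate, and it rose 1.31-fold in the beta-catenin line (adjusted p = 0.00102). The 1.18-fold fall in ICAT cells (adjusted p = 0.0188) was lost without ICAT replicate 2 or control replicate 1 or 2 (adjusted p between 0.0552 and 0.0648). Fen1, the nuclease that trims the fragments, read 11.23, 11.19 and 11.24 in beta-catenin cells, 10.64, 10.61 and 10.76 in ICAT cells and 11.23, 11.11 and 11.14 in control cells. Beta-catenin and control arrays overlapped (adjusted p = 0.493), and the ICAT arrays were 1.40-fold lower (adjusted p = 0.000143). Ung, which removes uracil from DNA, gave 9.04, 9.02 and 9.14 in beta-catenin cells, 8.33, 8.46 and 8.76 in ICAT cells and 9.20, 9.36 and 9.19 in control cells. Ung had one of the larger falls in ICAT cells, 1.66-fold (adjusted p = 0.000190). In beta-catenin cells it lay -0.18 from control with no overlap and no call (adjusted p = 0.196). A call was gained there without ICAT replicate 3 (adjusted p = 0.0495). The mismatch repair gene Msh6 fell in both lines, 1.37-fold in the beta-catenin line (adjusted p = 0.00403) and 1.39-fold in ICAT cells (adjusted p = 0.00282). Rpa2, a subunit of the protein that coats single-stranded DNA, was not called in beta-catenin cells (log2 difference 0.00, adjusted p = 0.995) and fell 1.36-fold in ICAT cells (adjusted p = 0.00429).

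The 4 genes that supply deoxynucleotides all fell in ICAT cells, and 1 of them, Rrm2, fell in beta-catenin cells. Tk1, the thymidine salvage kinase, read 10.58, 10.62 and 10.67 on beta-catenin arrays, 9.86, 9.93 and 10.21 on ICAT arrays and 10.87, 10.81 and 10.83 on control arrays. Groups were separate in the order control, beta-catenin, ICAT. Tk1 fell 1.78-fold in ICAT cells (-0.84 ± 0.0857 SE, adjusted p = 2.46e-05). Its -0.21 in beta-catenin cells was not called (adjusted p = 0.0773) but was without ICAT replicate 1 or 3 (adjusted p between 0.00715 and 0.0469). Rrm1, the large subunit of ribonucleotide reductase, had 11.44, 11.51 and 11.52 in beta-catenin cells, 10.94, 10.81 and 11.04 in ICAT cells and 11.36, 11.40 and 11.35 in control cells. It fell 1.36-fold in ICAT cells (adjusted p = 0.000467) and was not called in beta-catenin cells (log2 difference 0.12, adjusted p = 0.227), although those arrays were all above control. Rrm2, the small subunit of the same enzyme, differed from it, with 12.12, 12.18 and 12.25 in beta-catenin cells, 11.96, 12.13 and 12.29 in ICAT cells and 12.52, 12.53 and 12.57 in control cells. The transfected lines overlapped each other below control, and Rrm2 fell 1.28-fold in the beta-catenin line (adjusted p = 0.00519) and 1.33-fold in ICAT cells (adjusted p = 0.00199). Tyms, which makes thymidylate, had the largest SD of the list in ICAT cells (0.297), with 6.19, 6.55 and 6.52 in beta-catenin cells, 6.04, 5.94 and 6.49 in ICAT cells and 6.66, 6.92 and 6.58 in control cells. All arrays of both lines were below the control arrays and overlapped each other. Its 1.48-fold fall in ICAT cells (-0.56 ± 0.149 SE, adjusted p = 0.0112) was lost without ICAT replicate 2 or control replicate 2 (adjusted p between 0.0531 and 0.0549). In beta-catenin cells it lay -0.30 from control without a call (adjusted p = 0.152), and a dimmer probe set of Tyms was higher there (log2 difference 0.55, adjusted p = 0.00209 over all probe sets).

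Genes for the chromatin of new DNA gave mixed values. Uhrf1, which brings the maintenance DNA methyltransferase to the fork, read 10.47, 10.49 and 10.62 on beta-catenin arrays, 10.35, 10.37 and 10.52 on ICAT arrays and 10.97, 10.98 and 11.03 on control arrays. Every array of both lines was below every control array. Uhrf1 fell 1.38-fold in the beta-catenin line (adjusted p = 0.000254) and 1.49-fold in ICAT cells (adjusted p = 7.02e-05). Chaf1b, a subunit of the histone chaperone CAF-1, had 8.89, 8.86 and 9.06 in beta-catenin cells, 8.33, 8.19 and 8.62 in ICAT cells and 8.77, 8.79 and 8.82 in control cells. It fell 1.33-fold in ICAT cells (adjusted p = 0.00662) and was not called in beta-catenin cells (log2 difference 0.14, adjusted p = 0.328). Slbp, which binds the stem-loop of histone mRNAs, was the one gene of the list with a mean above control in ICAT cells (log2 difference 0.14, adjusted p = 0.170). All its groups overlapped, between 11.17 and 11.30 on beta-catenin arrays, 11.21 and 11.41 on ICAT arrays and 11.12 and 11.24 on control arrays.

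Of the 3 regulators of S phase entry, Ccne1 fell in both lines, Ccne2 fell in ICAT cells and E2f1 was called in neither. Ccne2, which encodes cyclin E2, had the largest fall of the list, with 9.48, 9.53 and 9.73 on beta-catenin arrays, 8.58, 8.80 and 8.96 on ICAT arrays and 9.79, 9.77 and 9.81 on control arrays. ICAT arrays were far below the others and the beta-catenin arrays just below control. Ccne2 fell 2.02-fold in ICAT cells (-1.01 ± 0.0970 SE, adjusted p = 1.56e-05) and was not called in beta-catenin cells (-0.21, adjusted p = 0.118). Ccne1, which encodes cyclin E1, measured 8.88, 8.85 and 8.85 in beta-catenin cells, 8.85, 8.74 and 9.003 in ICAT cells and 9.47, 9.31 and 9.47 in control cells. The lines overlapped each other and lay below control, and Ccne1 fell 1.47-fold in the beta-catenin line (adjusted p = 0.000172) and 1.47-fold in ICAT cells (adjusted p = 0.000200). E2f1, an activating E2F factor, gave 8.29, 8.29 and 8.55 in beta-catenin cells, 8.23, 8.31 and 8.54 in ICAT cells and 8.56, 8.65 and 8.63 in control cells. All arrays of both lines were below the control arrays, but neither difference passed (-0.24 in beta-catenin cells, adjusted p = 0.0772, and -0.25 in ICAT cells, adjusted p = 0.0579). Both passed without beta-catenin replicate 3 or ICAT replicate 3 (adjusted p between 0.0242 and 0.0328 in beta-catenin cells and between 0.00966 and 0.0376 in ICAT cells).

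**Figure D3:**
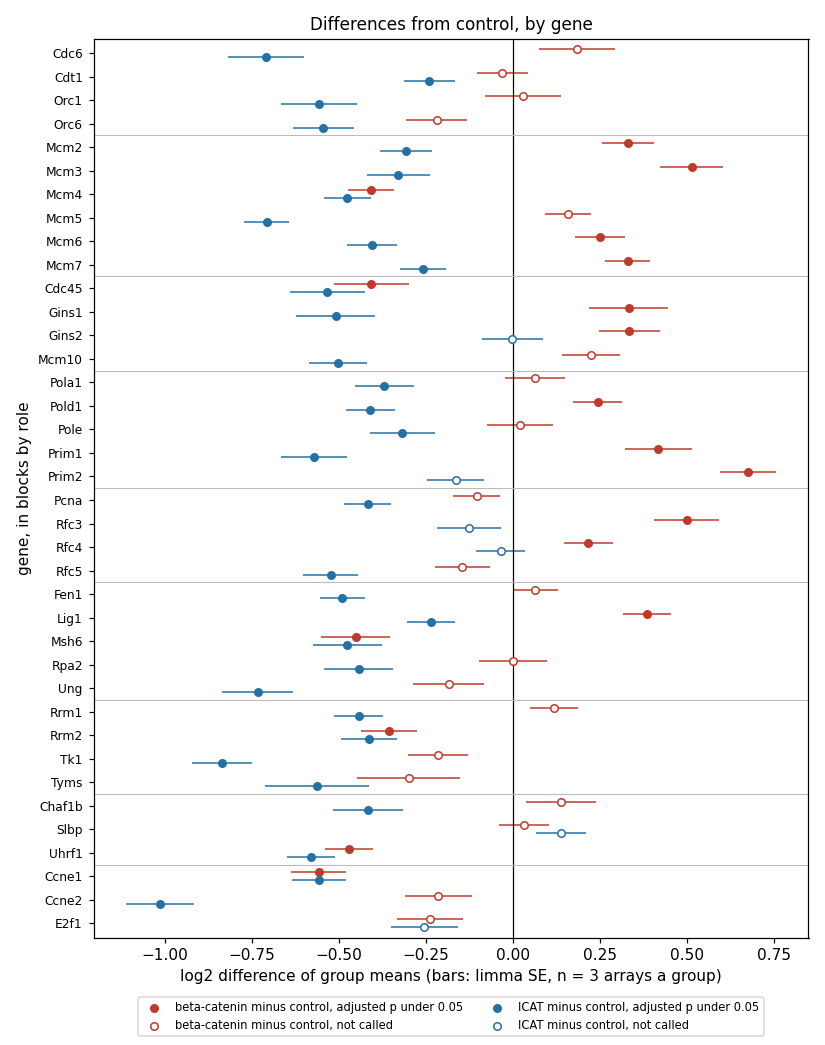
Log2 difference of group means for beta-catenin minus control and ICAT minus control, 1 row per gene in blocks by role, with limma SE bars (n = 3 arrays a group); filled points passed an adjusted p under 0.05. ICAT points lie left of 0 for 37 of 38 genes, and 32 are filled, while beta-catenin points lie on both sides.

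Set directly against each other, the transfected lines differed in 29 of 38 genes, and all 29 were higher in beta-catenin cells. Of all genes tested, 40.4 percent were called in that comparison, 22.5 percent higher and 17.9 percent lower. Among the 4499 genes with a mean between 9 and 13, 38.5 percent were higher and 22.7 percent lower. By limma 0 genes were lower there, also at an unadjusted p under 0.05. The median log2 difference was 0.55, against -0.01 over all genes tested, and the called differences ranged from 1.16-fold to 1.99-fold. The largest differences were in primase, licensing and the helicase ring. Prim1 was 1.99-fold higher in beta-catenin cells than in ICAT cells (0.99 ± 0.0959 SE, adjusted p = 1.18e-05), Cdc6 1.86-fold (adjusted p = 6.34e-05) and Mcm5 1.82-fold (adjusted p = 1.74e-06). With the chosen probe sets, all 5 polymerase and primase genes, all 4 licensing genes and all 4 clamp and loader genes were called. The other probe set of Orc1 was not (log2 difference -0.18, adjusted p = 0.159 over all probe sets). Nor was the other probe set of Rfc4 (0.30, adjusted p = 0.0557 over all probe sets). Arrays of the groups did not overlap for these 29 genes, where 25.2 percent of all genes tested had all beta-catenin arrays above and 22.4 percent had all below. The 9 genes that were not called were Mcm4, Cdc45, Msh6, Rrm2, Tyms, Uhrf1, Slbp, Ccne1 and E2f1, with log2 differences between -0.11 (Slbp, adjusted p = 0.285) and 0.26 (Tyms, adjusted p = 0.192). In a fit over all probe sets, another probe set was higher in beta-catenin cells for Rrm2 (0.33, adjusted p = 0.0242) and Uhrf1 (0.27, adjusted p = 0.0406). So was a dim one of Tyms (0.45, adjusted p = 0.00741). The remaining probe sets of these 9 genes were not called there. Calls for Cdt1 were lost without beta-catenin replicate 2 or 3, ICAT replicate 2 or any 1 control array (adjusted p between 0.0593 and 0.149). Those for Orc6 were lost without beta-catenin replicate 3 (adjusted p = 0.0501) and for Pole without beta-catenin replicate 3 or ICAT replicate 2 (adjusted p between 0.0558 and 0.0593). Without ICAT replicate 3, Cdc45 and Tyms were called as well (adjusted p = 0.0139 and 0.0197).

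The arrays of a line did not carry these genes at 1 level. The median of the 38 genes relative to the control mean was -0.01, 0.03 and 0.12 on the beta-catenin arrays, -0.51, -0.55 and -0.26 on the ICAT arrays, and between -0.01 and 0.01 on the control arrays. ICAT replicate 3 was thus the nearest to control of the ICAT arrays, and it held the highest ICAT value for 37 of 38 genes. Beta-catenin replicate 3 held the highest beta-catenin value for 35 of 38. These arrays also had the lowest medians over all probe sets (6.22 and 6.21) and the widest spread of values (SD 2.28 and 2.29), and their part in the result was not tested. After quantile normalization of the table, a step added after the arrays were seen to differ in spread, the median of the 38 genes was 0.01, 0.01 and 0.08 on the beta-catenin arrays and -0.45, -0.48 and -0.29 on the ICAT arrays. Without ICAT replicate 3 the median difference of ICAT cells from control was -0.53.

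**Figure D4:**
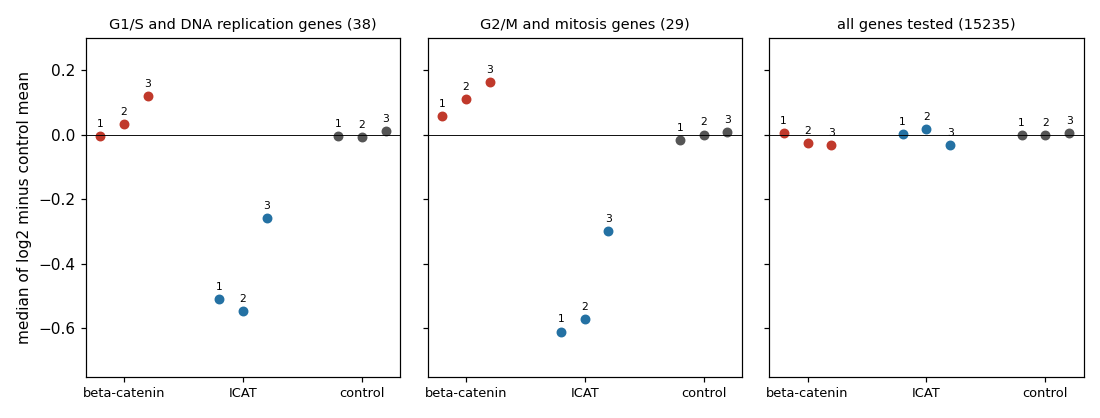
Median over genes of log2 expression minus the control mean on each array (numbered by replicate) for the 38 replication genes, the 29 genes of the G2/M and mitosis list and all 15235 genes tested. The ICAT arrays lie between -0.55 and -0.26 for the replication genes and between -0.61 and -0.30 for the G2/M genes, and all arrays lie within 0.04 of 0 for all genes.

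Other genes of the same pathways were counted against the same background, in which 19.6 percent of all genes tested rose and 15.4 percent fell in beta-catenin cells, and 18.7 percent rose and 18.5 percent fell in ICAT cells. Among 39 other fork genes beta-catenin cells had 11 rises and 3 falls (median log2 difference 0.05), and ICAT cells had 0 rises and 27 falls (-0.30). Dscc1, a subunit of the alternative loader that links replication to sister chromatid cohesion, was 2.58-fold higher in beta-catenin cells (9.79 ± 0.0887 against 8.42 ± 0.0714, SD, n = 3, adjusted p = 9.97e-07) and not called in ICAT cells (adjusted p = 0.558). Pold4, the smallest polymerase delta subunit, fell 2.19-fold in the beta-catenin line (adjusted p = 1.43e-07). It also fell 1.15-fold in ICAT cells (adjusted p = 0.0252), a call lost without ICAT replicate 2 or control replicate 1 or 3 (adjusted p between 0.0656 and 0.110). Orc2, of the origin recognition complex, and Dna2, a nuclease and helicase for long flaps, fell 2.12-fold and 2.27-fold in ICAT cells (adjusted p = 4.46e-05 and 7.77e-05). In beta-catenin cells Orc2 fell 1.34-fold (adjusted p = 0.0194), a call lost without beta-catenin replicate 1 or 2 or control replicate 3 (adjusted p between 0.0574 and 0.0673). Dna2 was not called there (log2 difference -0.21, adjusted p = 0.294) but was called lower without ICAT replicate 3 (adjusted p = 0.0292). It was also called lower with the mean of its probe sets (-0.32, adjusted p = 0.00305). The same held with only the 6 arrays compared (adjusted p = 0.0227) and with array weights (adjusted p = 0.0121). Among 20 genes for replication-coupled chromatin and repair there were 7 rises and 0 falls in beta-catenin cells, against 0 rises and 16 falls in ICAT cells. Among them Exo1, an exonuclease of mismatch repair, fell 1.98-fold in ICAT cells (adjusted p = 0.000246). Among 29 genes of G2/M and mitosis, beta-catenin cells had 4 rises and 4 falls (13.8 percent each way, no more than among all genes, median 0.12) and ICAT cells 0 rises and 26 falls (-0.51).

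The 24 genes of nucleotide synthesis gave 6 rises (25 percent) and 4 falls (16.7 percent) in beta-catenin cells, near the shares among all genes. In ICAT cells they gave 4 rises (16.7 percent, also near that share) and 14 falls (58.3 percent). Ctps2, a CTP synthase, rose in both lines, 3.54-fold in the beta-catenin line (adjusted p = 4.24e-08) and 2.48-fold in ICAT cells (adjusted p = 1.47e-06), from means of 9.92 ± 0.0258, 9.40 ± 0.198 and 8.09 ± 0.0279 in beta-catenin, ICAT and control cells (SD, n = 3 each). Samhd1, which degrades deoxynucleotides, rose 1.997-fold in the beta-catenin line (adjusted p = 2.57e-07) and 1.18-fold in ICAT cells (adjusted p = 0.00938), and the ICAT call was lost when all probe sets of the gene were averaged (adjusted p = 0.564).

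The 29 E2F, RB and G1/S regulators gave 8 rises (27.6 percent) and 10 falls (34.5 percent) in beta-catenin cells. In ICAT cells they gave 4 rises (13.8 percent, below the 18.7 percent among all genes) and 13 falls (44.8 percent). The retinoblastoma gene Rb1 and its relative Rbl2, repressors of E2F targets, rose in both lines. Rb1 rose 1.25-fold in the beta-catenin line (adjusted p = 0.00634) and 1.76-fold in ICAT cells (adjusted p = 1.54e-05), and Rbl2 1.39-fold and 1.46-fold (adjusted p = 0.000263 and 0.000116). Cdkn1c, which encodes the CDK inhibitor p57, rose 2.61-fold in the beta-catenin line (adjusted p = 0.000248) and 2.51-fold in ICAT cells (adjusted p = 0.000369). Cdkn1a, which encodes the inhibitor p21, and Ccnd1, which encodes cyclin D1, fell in beta-catenin cells, 2.25-fold and 2.51-fold (adjusted p = 0.000128 and 1.21e-07), and neither was called in ICAT cells (adjusted p = 0.767 and 0.635). Mybl2, a transcription factor of S phase and G2, fell 2.60-fold in ICAT cells (adjusted p = 2.04e-05). Of the E2F family, the repressor E2f8 fell 1.87-fold in beta-catenin cells and 1.78-fold in ICAT cells (adjusted p = 0.000350 and 0.000658). E2f6 also fell in both lines, 1.57-fold and 1.30-fold (adjusted p = 1.58e-05 and 0.000898). In beta-catenin cells E2f2, E2f4 and E2f5 fell 1.36-fold, 1.28-fold and 1.24-fold (adjusted p = 0.00311, 0.00451 and 0.00119). None of these was called in ICAT cells (adjusted p = 0.969, 0.124 and 0.783). E2f2 was called lower there with its most variable probe set (log2 difference -0.40, adjusted p = 0.00233) and E2f4 after quantile normalization (adjusted p = 0.0481). E2f7 rose 1.34-fold in the beta-catenin line (adjusted p = 0.0136, but 0.0531 without beta-catenin replicate 3) and fell 1.76-fold in ICAT cells (adjusted p = 0.000220). E2f3 was called in neither line (adjusted p = 0.516 in beta-catenin cells and 0.0526 in ICAT cells, the second 0.00532 without ICAT replicate 3 and between 0.00848 and 0.0403 under the other alternatives in which it passed). Cdk2, the kinase partner of cyclin E, fell 1.40-fold in ICAT cells (adjusted p = 0.000195) and was not called in beta-catenin cells (adjusted p = 0.215). It was called lower in beta-catenin cells with array weights (-0.13, adjusted p = 0.0156) and after quantile normalization (-0.15, adjusted p = 0.0455).

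**Figure D5:**
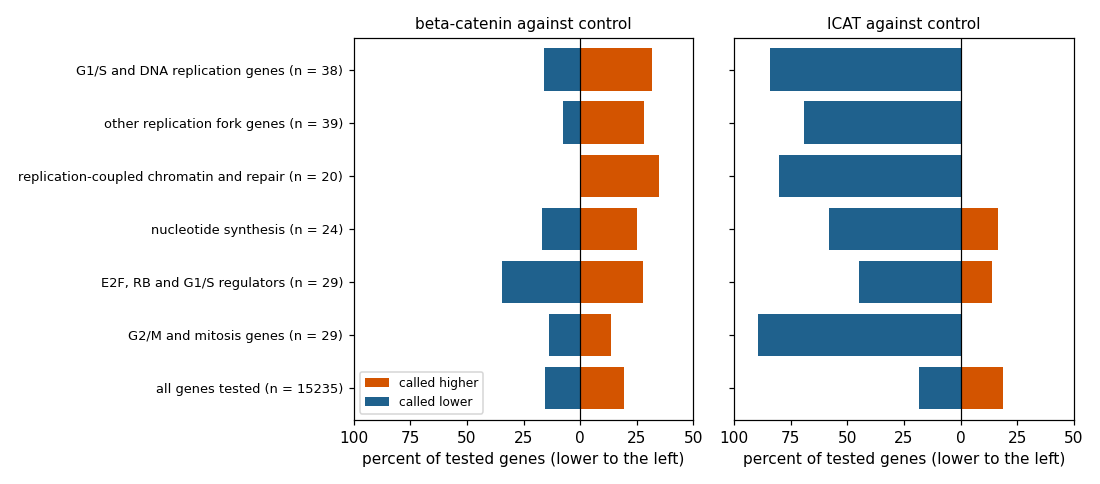
Percent of tested genes called higher (right of 0) and lower (left of 0) in beta-catenin against control and ICAT against control, for the 38 G1/S and DNA replication genes, 5 other lists and all genes tested. In ICAT cells 84.2 percent of the replication genes were called lower, against 18.5 percent of all genes.

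Markers of fibroblast, epithelial, immune and endothelial, and acinar cells were counted as well. Of all genes tested, 18.7 percent rose and 18.5 percent fell in ICAT cells. In beta-catenin cells 19.6 percent rose and 15.4 percent fell. The marker lists are short, so counts of 1 or 2 genes say little beside these shares. Of 8 tested fibroblast markers, 6 rose in ICAT cells (75 percent) and 0 fell. In beta-catenin cells 3 of the 8 rose (37.5 percent) and 1 fell (12.5 percent). The summed log2 level of the 10 on the array was 72.3 to 74.4 on beta-catenin arrays, 78.7 to 81.8 on ICAT arrays and 70.2 to 70.8 on control arrays, with Lum and Fap under 5 on every array. Of 7 tested epithelial markers, 4 rose (57.1 percent) and 0 fell in ICAT cells, and by limma 0 were called in beta-catenin cells (1 at an unadjusted p under 0.05). Their summed level over 9 genes was 55.7 to 56.1 on beta-catenin arrays, 58.3 to 59.9 on ICAT arrays and 56.0 to 56.4 on control arrays. Of 6 tested immune and endothelial markers, 2 fell in beta-catenin cells and by limma 0 were called in ICAT cells (1 at an unadjusted p under 0.05), with a sum over 9 genes of 51.0 to 51.7 on beta-catenin arrays, 52.1 to 53.2 on ICAT arrays and 52.7 to 53.5 on control arrays. Of 3 tested acinar markers, 1 rose in each line. The part of these markers in the replication gene result was not tested.

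The genes of the list mostly varied together over the 9 arrays. Pearson's r between a gene and the mean of the other 37 was highest for Pola1 (0.991), Cdc6 (0.990) and Rpa2 (0.985), and lowest for Slbp (-0.43), Ccne1 (0.43), Msh6 (0.52), E2f1 (0.54) and Mcm4 (0.56). The 9 points are 3 groups of 3 arrays, so these values mostly describe the differences between groups. Outside the list, the profiles most like the mean of the 38 genes, among 5378 genes with an SD over arrays of at least 0.2, were those of Tarbp2 (r = 0.995), Mrpl45 (0.995), Ipo5 (0.995), Nudt19 (0.994) and Lpcat1 (0.994).

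A further 28 probe sets of 23 of these genes had a mean of 7 or more. In a fit over all probe sets, 12 of them were higher and 6 lower in beta-catenin cells, 0 higher and 18 lower in ICAT cells, and 20 higher and 0 lower in beta-catenin cells against ICAT cells. The share of all probe sets called in that fit is not given here, so these counts have no background beside them. The difference of these probe sets had the same sign as that of the chosen probe set in 24, 26 and 24 of 28 cases for these comparisons. Besides those of Orc1 and Tyms, probe sets with means under 5 went against the chosen one in beta-catenin cells for Mcm10 (-0.38, adjusted p = 0.00286) and Pola1 (-0.29, adjusted p = 0.0161).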

How the data were processed

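Biotin-labelled cRNA of total RNA from 9 cultures was prepared with an Affymetrix 3′ IVT kit, per the labels' protocols. The authors deposited log2 expression per probe set, and the submitters' processing notes name RMA and affy, whose versions were not given in the sources. RMA normalizes arrays to each other, so a shift of all genes one way could be hidden, and it compresses differences of dim probe sets. The deposited arrays still differed in spread (SD 2.22 to 2.29 over probe sets). Of 45037 probe sets, 34945 have 1 gene symbol, 932 several and 9160 none in the platform annotation. Symbols were updated by Entrez identifier except in 204 single-gene probe sets. Genes at log2 5 or more on at least 3 arrays were tested. The 39 genes, their roles and the lists compared with them were chosen with earlier results of these data known.

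The fit used limma 3.58.1 (R 4.3.3), with 1 mean for each group over the 9 arrays, 6 residual and 5.03 prior degrees of freedom, two-sided moderated tests and Benjamini-Hochberg adjustment over all 15235 genes in each comparison, called at an adjusted p under 0.05. With 3 arrays a group, their number limits the precision, and an exact permutation test of 3 against 3 cannot give a p under 0.1. No 2 arrays were identical. Values per array are given for the 30 genes with a called difference of at least 0.5 on the log2 scale or a central role, and for the other 8 a range or a test. Of the other pathway genes, up to 4 called each way by size were taken, with the E2F family, Rb1, Rbl1, Rbl2, Ccna2 and Cdk2; Rbl1 and Ccna2 were checked and are given with the limits. The lists were other replication fork genes, nucleotide synthesis, E2F, RB and G1/S regulators, replication-coupled chromatin and repair, G2/M and mitosis genes, and epithelial, acinar, fibroblast, and immune and endothelial markers. Chaf1a and some genes of the other lists were not analysed here. RefSeq start-site windows of 300 bases on GRCm38.p6 were matched by gene for 32 of the 38 genes.

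On simulated data with 15235 genes, beta-catenin against control recovered 20 percent of 1.2-fold and 92 percent of 1.5-fold changes with 6.10 percent false calls, and ICAT against control 22 and 92 percent with 5.49 percent. The spread and the share of changed genes in these simulations are not given here. The rates thus need not hold for the real arrays, of which the ICAT arrays spread most. Same-numbered arrays did not deviate together in every pair (correlations from -0.13 to 0.41, against -0.42 to 0.33 for other pairs). Those of replicate 3 were 0.12, 0.17 and 0.41, each the highest for its 2 groups. The labels name no shared day or culture, so the numbers were not taken as pairs. Whether the replicate 3 arrays shared a step was not tested. Alternatives were no filter or a filter at log2 7, the mean of a gene's probe sets or the one with the largest SD, the 6 arrays compared alone, array weights, a trended robust prior, centred arrays, quantile normalization (added after the data were seen), a replicate block and each array left out.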

Additional observations from a re-analysis of the deposited data

Results flagged for a closer look

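The lines differed from each other in 29 of the 38 genes by a direct test of beta-catenin minus ICAT (limma, adjusted p under 0.05). The control mean does not enter these differences. Control arrays took part through the shared estimate of spread and the filter on low values. Log2 differences in the helicase ring were 0.64 for Mcm2, 0.84 for Mcm3, 0.87 for Mcm5, 0.66 for Mcm6 and 0.59 for Mcm7. In licensing they were 0.90 for Cdc6, 0.21 for Cdt1, 0.59 for Orc1 (-0.18 with its other probe set, not called) and 0.33 for Orc6. In helicase activation they were 0.73 for Mcm10, 0.84 for Gins1 and 0.34 for Gins2. Polymerase and primase genes gave 0.43 for Pola1, 0.34 for Pole, 0.65 for Pold1, 0.99 for Prim1 and 0.84 for Prim2. The clamp and its loader gave 0.31 for Pcna, 0.63 for Rfc3, 0.25 for Rfc4 (0.30 with its other probe set, not called) and 0.38 for Rfc5. Behind the fork the values were 0.62 for Lig1, 0.55 for Fen1, 0.55 for Ung and 0.44 for Rpa2. The remaining genes were Rrm1 (0.56), Tk1 (0.62), Chaf1b (0.56) and Ccne2 (0.80). No explanation for these differences was tested.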

How the results depend on the processing

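The 38 genes in 3 comparisons gave 114 calls and non-calls, and no called direction reversed under any alternative. All 114 were kept with no filter on low values and with centred arrays. With the mean of all probe sets of a gene 7 calls were lost and 1 was gained, and the median difference was -0.36 in ICAT cells against control and 0.39 in beta-catenin cells against ICAT cells. The counts of genes that fell (6) and rose (12) in beta-catenin cells both changed with the settings. Falls were 12 with only the 6 arrays compared, 13 with array weights and 10 with quantile normalization. In these settings 9, 11 and 6 of the 38 genes gained a call in that comparison. Over all genes tested, falls there went from 2340 to 3085, 4188 and 2817 in these settings. Rises over all genes tested went from 2981 to 3573, 4136 and 2987. Quantile normalization also called 1 gene, Slbp, higher in ICAT cells. Leaving out 1 array at a time gave 6 to 11 genes that fell and 8 to 15 that rose in beta-catenin cells, 28 to 34 that fell in ICAT cells, and 26 to 31 higher in beta-catenin than in ICAT cells. Over all genes tested, 1815 to 2876 then fell and 2431 to 3346 rose in beta-catenin cells. In ICAT cells 2177 to 3293 fell, and 2846 to 3901 were higher in beta-catenin than in ICAT cells. The median difference ranged from -0.53 to -0.40 in ICAT cells against control and from 0.48 to 0.60 in beta-catenin against ICAT cells, and from 0.02 to 0.08 in beta-catenin cells against control. The cause of these changes was not tested.

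With a replicate block there were 13 rises and 7 falls in beta-catenin cells, 33 falls in ICAT cells and 29 were higher in beta-catenin than in ICAT cells, with 3 calls gained and 0 lost. Over all genes tested, that block gave 3054 rises and 2470 falls in beta-catenin cells and 2928 falls in ICAT cells. It also gave 3519 genes higher in beta-catenin than in ICAT cells. The samples of a block share only a number. Array weights gave 4136 genes of all tested higher and 4188 lower in beta-catenin cells, against 2981 and 2340. Among other genes, Rbl1 lay 0.13 above control in ICAT cells without a call but -0.39 with its most variable probe set (adjusted p = 0.0447). Ccna2 rose 1.19-fold in beta-catenin cells, a call lost without beta-catenin replicate 2 or 3 or any 1 control array (adjusted p between 0.0703 and 0.110). The arrays give no detection calls, so how far a probe set stood above background is unknown; the 38 gene means over 9 arrays lay between 6.43 and 12.88.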
